A study of Homo sapiens with 4 samples.

Results

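The extracellular matrix genes described here are 50 named genes of 57815 rows in a table of gene expression, covering collagen chains, laminin chains and the glycoproteins and proteoglycans that bind them. They were taken by gene symbol, from a list drawn up with earlier results of these data known, and each of the 50 had 1 row. RNA was sequenced from MKN1 and AGS, established human cell lines that the labels call gastric cancer cells, after transfection with a Lipofectamine lipid reagent. Cells with a small interfering RNA against HOXB9, labelled HOXB9 knockdown, formed the groups MKN1 siHOXB9 and AGS siHOXB9. Cells with a scrambled siRNA, labelled WT, formed the groups MKN1 siScramble and AGS siScramble. Each group held 1 library, so the 4 libraries give 1 comparison of siHOXB9 with siScramble in each line and no replicate of either. HOXB9 is a homeobox transcription factor, and the study asked what its knockdown does to gastric cancer cells. The time between transfection and harvest and the sequence of the siRNA were not analysed here.

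Matrix proteins fall into sheets, fibres and adaptors. Basement membranes are thin sheets under epithelia, built from a laminin network that assembles at the cell surface and a type IV collagen network, joined by nidogens and the proteoglycans perlecan and agrin. Fibrillar collagens and fibronectin form the fibres of the stroma, fibrillins and fibulins form microfibrils and elastic fibres, and matricellular proteins such as thrombospondins and SPARC act on cells and on matrix assembly without being structural. Laminins and collagens are trimers of chains from separate genes, so the levels of partner chains can be read beside each other. In the stomach, laminins and type IV collagen are largely basement membrane products of epithelial and mesenchymal cells, while fibrillar collagens are mostly products of fibroblasts.

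Values were FPKM, a count of fragments relative to gene length and depth, which the authors computed. The depth estimated from low values was 10680000 fragments for MKN1 siHOXB9, 11540000 for MKN1 siScramble, 12540000 for AGS siHOXB9 and 13040000 for AGS siScramble, so that 1 fragment in a transcript of 5 kb is worth 0.0162 to 0.0198 FPKM. HOXB9 itself was at 0.218 FPKM in MKN1 siHOXB9 and 1.14 FPKM in MKN1 siScramble, and at 4.44 FPKM in AGS siHOXB9 and 16.4 FPKM in AGS siScramble, so the targeted gene was lower in both siHOXB9 libraries. The MKN1 values rest on few fragments, an estimated 5.4 in MKN1 siHOXB9 and 30.5 in MKN1 siScramble. Both lines had the epithelial keratin KRT8 (1230 and 1077 FPKM in MKN1 siHOXB9 and siScramble, 1880 and 1566 FPKM in AGS siHOXB9 and siScramble), while EPCAM, an epithelial adhesion molecule, was at 2.70 and 2.14 FPKM in MKN1 siHOXB9 and siScramble and at 359 and 328 FPKM in AGS siHOXB9 and siScramble. The epithelial markers KRT19, CLDN4 and CDH1 were also lower in both MKN1 libraries. KRT7 lay the other way, at 1629 and 1710 FPKM in MKN1 siHOXB9 and siScramble and 4.98 and 3.73 FPKM in AGS siHOXB9 and siScramble. KRT18 was at 721 and 654 FPKM in MKN1 siHOXB9 and siScramble and 837 and 743 FPKM in AGS siHOXB9 and siScramble. Of the immune and endothelial markers, PTPRC, CD3E and KDR were at or under 0.0183 FPKM in all 4 libraries, while CDH5 was at 0.856 and 1.95 FPKM and CD68 at 12.7 and 12.02 FPKM in MKN1 siHOXB9 and siScramble, and LYZ at 2163 and 2197 FPKM in AGS siHOXB9 and siScramble. Of 10 fibroblast and mural cell markers, 7 reached 1 FPKM in an MKN1 library and 5 in an AGS library. Their summed level was 28.6 FPKM in MKN1 siHOXB9 and 23.1 FPKM in MKN1 siScramble, and 62.5 FPKM in AGS siHOXB9 and 41.2 FPKM in AGS siScramble. Within it, CSPG4 was at 14.4 and 13.7 FPKM, THY1 at 6.20 and 4.30 FPKM and FAP at 1.69 and 1.45 FPKM in MKN1 siHOXB9 and siScramble. In AGS they stayed at or under 0.249 FPKM. RGS5 was at 21.8 and 7.39 FPKM, ACTA2 at 17.9 and 12.5 FPKM and PDGFRA at 12.7 and 12.2 FPKM in AGS siHOXB9 and siScramble. In MKN1 siHOXB9 and siScramble RGS5 was at 1.75 and 0.591 FPKM and ACTA2 at 1.39 and 0.570 FPKM, and PDGFRA was listed at 0. DES was also higher in AGS, PDGFRB overlapped between the lines, and DPT and MYH11 stayed at or under 0.246 FPKM in all 4. The part of these markers in the matrix results was not tested.

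Matrix genes were far more widely expressed in MKN1 than in AGS. In MKN1, 40 of the 50 genes reached 1 FPKM in the siHOXB9 library and 40 in the siScramble library, against 19 in AGS siHOXB9 and 20 in AGS siScramble. Over all 57815 rows, 12674 and 12537 reached 1 FPKM in MKN1 siHOXB9 and siScramble, and 12745 and 12770 in AGS siHOXB9 and siScramble. At 50 FPKM or more there were 18 genes in each MKN1 library and 8 in each AGS library. The 50 genes summed to 3926 FPKM in MKN1 siHOXB9, 3435 FPKM in MKN1 siScramble, 1426 FPKM in AGS siHOXB9 and 1136 FPKM in AGS siScramble, which is 0.475%, 0.438%, 0.183% and 0.137% of all FPKM. There were 17 genes at 1 FPKM or more in all 4 libraries, among them 5 of the 8 laminin chains above 50 FPKM in every one. Another 19 were at 1 FPKM or more in both MKN1 libraries and under 1 FPKM in both AGS libraries, and 1, COL17A1, had the opposite pattern. Rows with these patterns were not counted over the whole table.

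**Figure D1:**
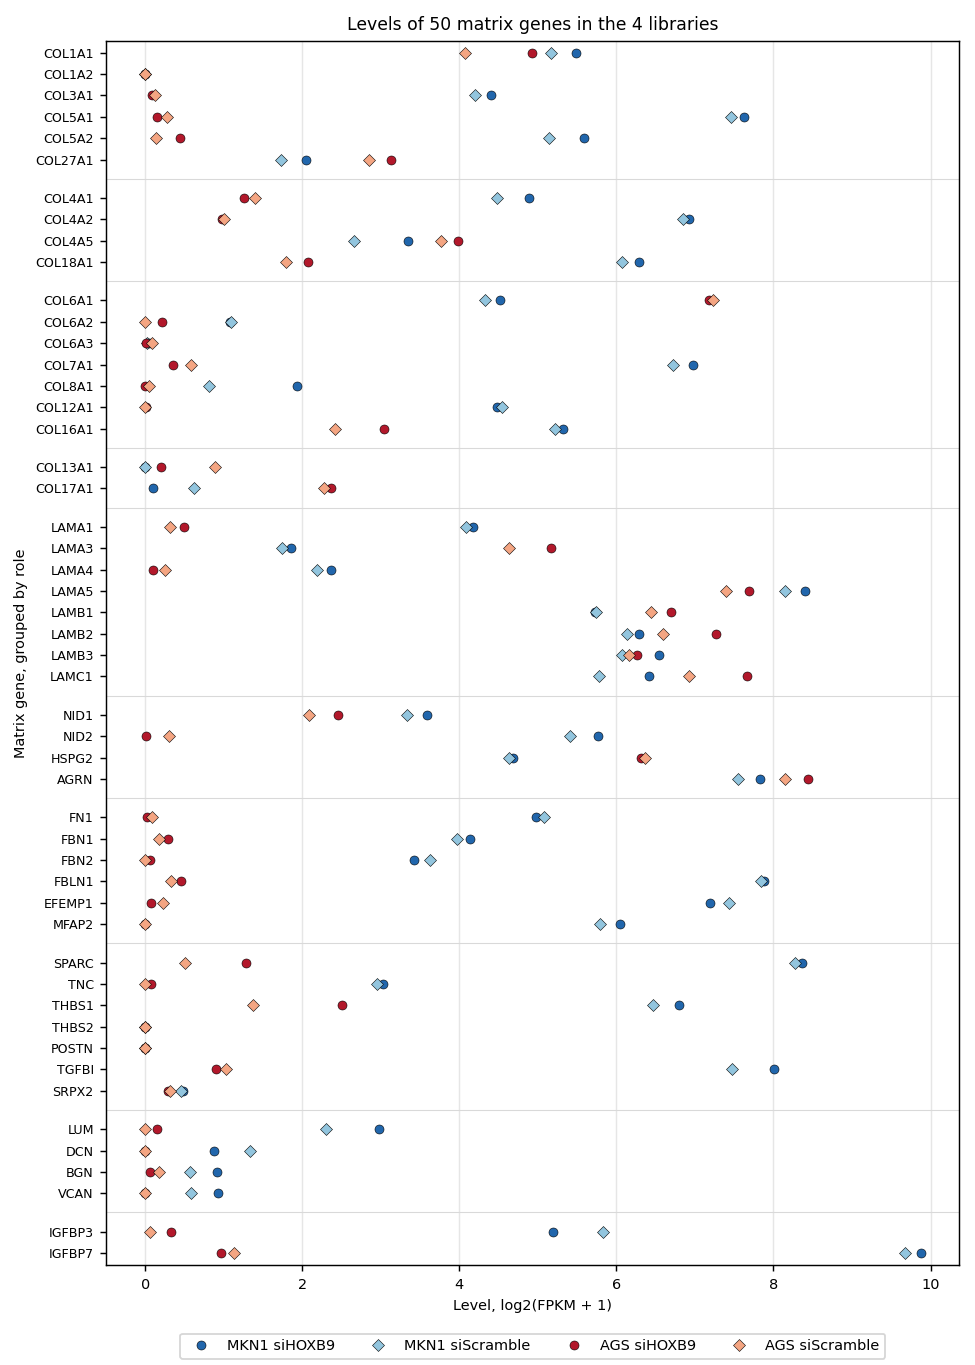
Level of each of the 50 matrix genes in the 4 libraries, as log2(FPKM + 1), with genes in rows grouped by role and 1 point per library; circles are siHOXB9 and diamonds siScramble, blue is MKN1 and red is AGS. For many genes the points of a line lie close together and the lines lie apart. IGFBP7 stood at 937 and 819 FPKM in MKN1 and at 0.959 and 1.18 FPKM in AGS, while COL6A1 and LAMA3 were higher in AGS. Other genes, such as LAMB3, overlapped between the lines.

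The line difference was tested with limma, in which line and siRNA were the terms and log2(FPKM + 1) the response, over the 13758 rows with at least 1 FPKM in 2 or more libraries. A gene was called when its Benjamini-Hochberg adjusted p was at most 0.05 and the difference at least 1 on the log2 scale. Of the 50 genes 40 were tested, and 26 were higher and 6 lower in MKN1 than in AGS. Of all tested rows, 16.2% were called higher in MKN1 and 20.9% lower. The filter bears on this count: 19 of the 40 passed it through the MKN1 libraries alone, and 18 of those 19 were called higher. The same limit holds for the p-values given below for single genes under 1 FPKM in both AGS libraries. It holds in reverse for COL17A1, which passed the filter through the AGS libraries alone and is among the 6 called lower. Among the 21 with at least 1 FPKM in an AGS library, 8 were higher in MKN1 and 6 lower. The shares of all tested rows were not computed under that restriction, so these counts have no like reference. The libraries that stand for each line differ in siRNA and come from 1 line each. The residual of the fit is the disagreement of the lines in the siRNA effect, with 1 degree of freedom. To this limma adds variance pooled over the tested rows. These p-values therefore do not measure the spread between independent cultures. In bulk RNA, fewer cells that make a matrix gene and less of its RNA per cell cannot be told apart.

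**Figure D2:**
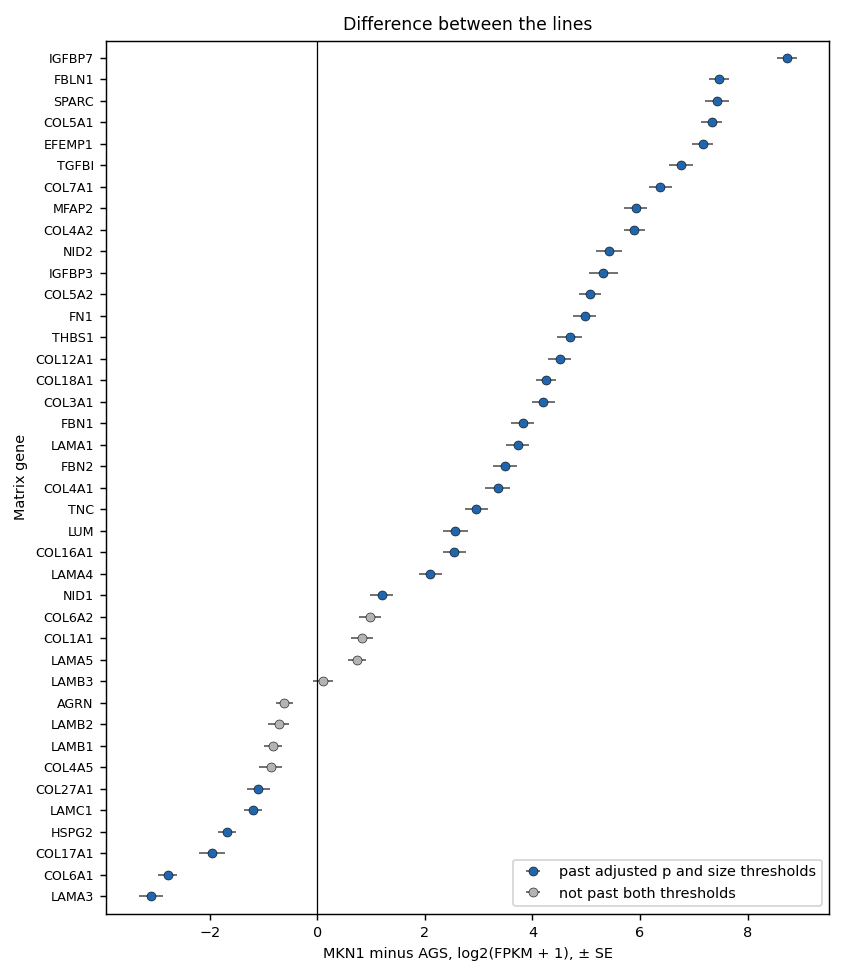
Difference between MKN1 and AGS for the 40 tested matrix genes on the log2(FPKM + 1) scale, with the standard error from limma as bars; blue points passed both the adjusted p and the size threshold and grey points did not. The range runs from 8.73 for IGFBP7 to -3.10 for LAMA3, with 26 blue points on the MKN1 side and 6 on the AGS side. Of the 40 genes, 19 passed the filter through the MKN1 libraries alone, and 18 of those are among the 26.

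With siHOXB9 the matrix genes were, for the most part, slightly higher than with siScramble, in both lines, and few differed by as much as 2-fold. With 1 library per group no test was possible within a line, so a change there is log2((siHOXB9 FPKM + 1)/(siScramble FPKM + 1)) of a gene with at least 1 FPKM in either library. In MKN1, 33 of 41 measured matrix genes were above 0 on this scale and 8 below, with a median of 0.19, beside 63.1% of all measured rows above 0 and a median of 0.09. The network former COL8A1 was the 1 gene at least 2-fold higher in MKN1, and 0 genes were 2-fold lower, beside 2.1% of all measured rows higher and 1.94% lower. In AGS, 16 of 21 measured matrix genes were above 0 and 5 below, with a median of 0.28, beside 43% of all measured rows above 0 and a median of -0.06. Thrombospondin 1, THBS1, was the 1 gene at least 2-fold higher in AGS, and 0 were 2-fold lower, beside 1.68% of all measured rows higher and 2.21% lower. THBS1 shares 859 exon bases with other genes, and without the genes that share exon bases the AGS count was 0. With no filter on low values the AGS median was 0.10, with 26 of 44 genes above 0. Other lists had medians above 0 as well. Epithelial markers were above 0 with siHOXB9 for 5 of 6 in MKN1 (median 0.22) and 7 of 7 in AGS (median 0.26), and fibroblast and mural markers for 6 of 7 in MKN1 (median 0.37) and 4 of 5 in AGS (median 0.49). Their part in the matrix values was not tested.

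Scaling moved the reference values. With each line centred on its median gene, 28 of 41 matrix genes were above 0 in MKN1 and 18 of 21 in AGS, with medians of 0.10 in MKN1 and 0.33 in AGS. After rescaling to a common total the medians were 0.12 in MKN1 and 0.35 in AGS. Over all rows the 2-fold calls split into 276 higher and 255 lower in MKN1, against 205 higher and 311 lower after centring and 230 higher and 283 lower after rescaling to a common total. In AGS they split into 223 higher and 293 lower, against 266 higher and 249 lower after centring and 278 higher and 235 lower after rescaling.

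**Figure D3:**
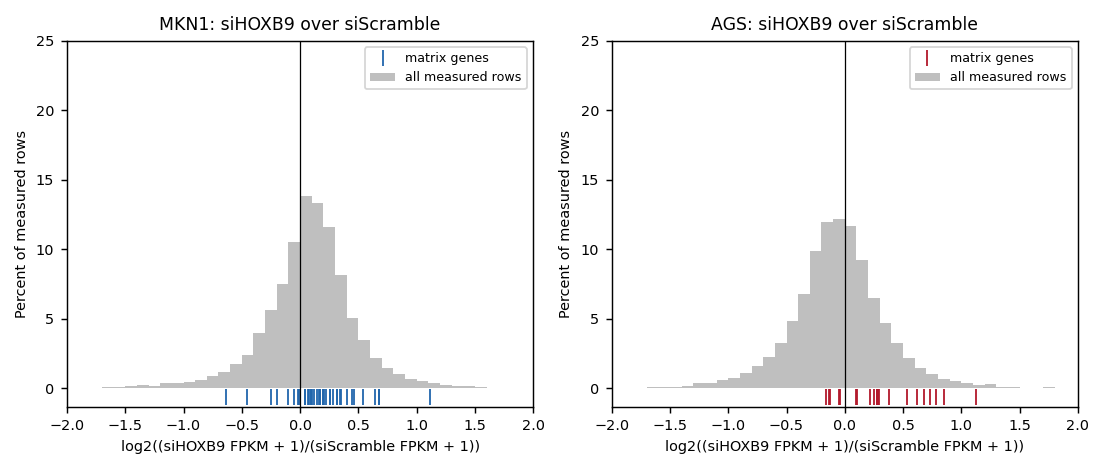
Change with siHOXB9 of the measured matrix genes (coloured ticks) under the distribution of all measured rows (grey bars, percent of rows), for MKN1 on the left and AGS on the right; the x axis is the log2 ratio with a pseudocount of 1 FPKM. The median of the ticks is 0.19 in MKN1 and 0.28 in AGS, and that of the grey bars 0.09 in MKN1 and -0.06 in AGS.

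The matrix genes are longer and more GC-rich than most. Their longest protein-coding transcript had a median of 6547 bases in MKN1 and 6483 bases in AGS. GC content, taken from the longest transcript of any type, had a median of 52% in MKN1 and 55.9% in AGS. All measured protein-coding genes had medians of 3419 bases in MKN1 and 3363 bases in AGS, and of 48.5% GC in both lines. Protein-coding genes of at least 5000 bases and 55% GC, a set chosen after seeing the data, had a median change of 0.18 in MKN1, with 73.7% above 0, and of 0.01 in AGS, with 51.6% above 0. Length alone gave medians of 0.10 in MKN1 and -0.02 in AGS. Of the measured matrix genes, 29 of 41 in MKN1 and 16 of 21 in AGS had that length, and 17 in MKN1 and 12 in AGS that GC content. The part of length and GC in the matrix values was not tested.

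Of the 20 matrix genes measured in both lines, 14 were above 0 in both, 0 were below in both and 6 had opposite signs, beside 29.2% of all rows measured in both lines that were above 0 in both. These 14 were COL1A1 and COL27A1 among fibrillar collagens, COL4A5 and COL18A1 of the basement membrane, COL16A1, the laminin chains LAMA3, LAMA5, LAMB2, LAMB3 and LAMC1, the linkers NID1 and AGRN, and the matricellular THBS1 and SPARC. LAMC1, the gamma chain of most laminins, was the 1 gene at least 1.5-fold higher in both lines, beside 0.823% of all rows measured in both. In the limma fit over both lines, 0 of the 40 tested matrix genes had an adjusted p at or under 0.05, beside 0.00727% of all tested rows, which is 1 of 13758. Of the 13758 tested rows, 980 had an unadjusted p under 0.05 in limma, 475 of them higher with siHOXB9. Among the 40 matrix genes there were 3, all higher with siHOXB9. They were LAMC1 at 0.69 ± 0.165 (log2, SE, unadjusted p = 0.00393, adjusted p = 0.453), THBS1 at 0.73 ± 0.237 (unadjusted p = 0.0168, adjusted p = 0.616) and COL1A1 at 0.58 ± 0.203 (unadjusted p = 0.0233, adjusted p = 0.643). With 4 libraries and both terms fitted, 1 residual degree of freedom was left.

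**Figure D4:**
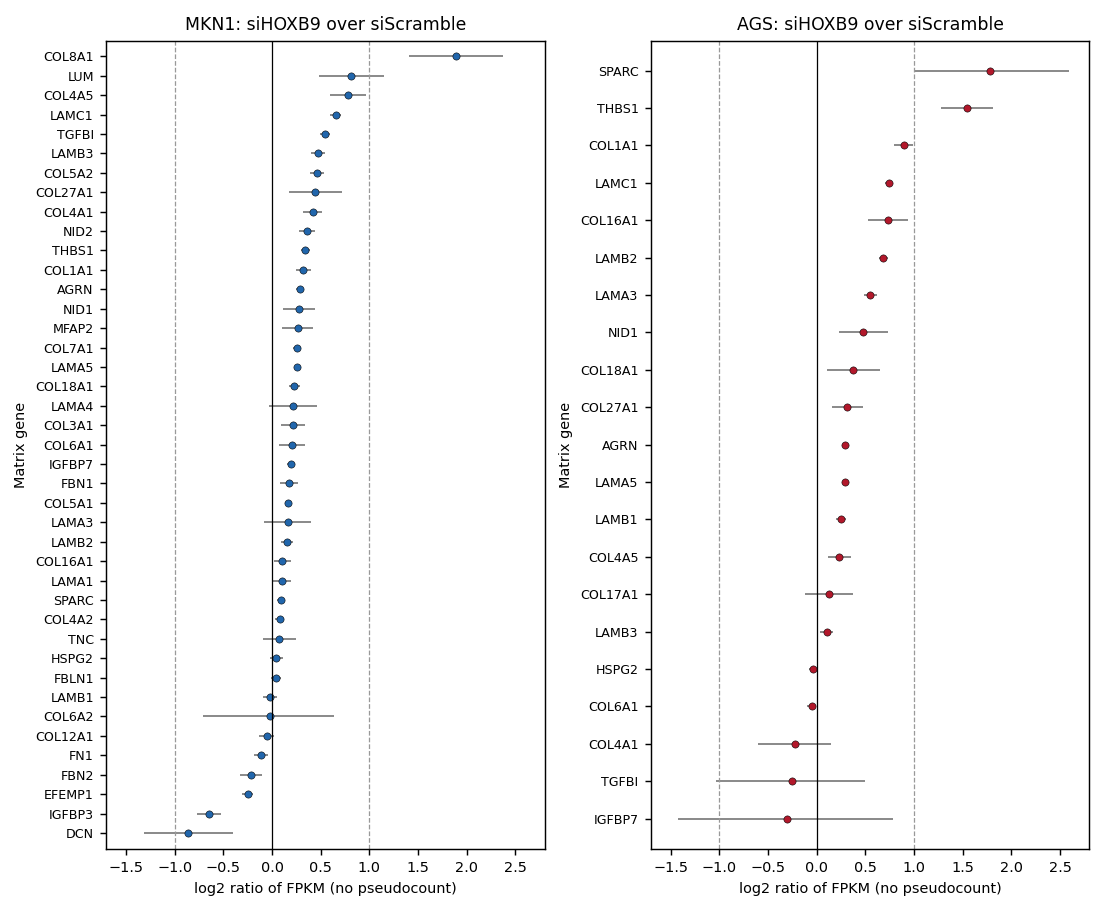
Ratio of siHOXB9 to siScramble for each measured matrix gene on a log2 axis without a pseudocount, MKN1 on the left and AGS on the right, with 95% exact binomial intervals from estimated fragments as bars; dashed lines mark 2-fold. Most points lie right of 0, and THBS1 and SPARC in AGS and COL8A1 in MKN1 are past 2-fold on this scale. The bars cover counting error and not the variation between cultures.

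Among the fibrillar collagens, MKN1 had type V and type III chains at levels where AGS was near 0. COL5A1, the chain that regulates fibril diameter, was at 197 FPKM in MKN1 siHOXB9 and 175 FPKM in MKN1 siScramble, and at 0.107 FPKM in AGS siHOXB9 and 0.208 FPKM in AGS siScramble, a line difference of 7.33 ± 0.20 (log2, SE, limma adjusted p = 6.6e-07). Its partner COL5A2 was at 47.0 and 34.2 FPKM in MKN1 siHOXB9 and siScramble and at 0.363 and 0.104 FPKM in AGS siHOXB9 and siScramble. COL3A1, which forms fibrils in compliant tissues, was at 20.2 and 17.4 FPKM in MKN1 siHOXB9 and siScramble and under 0.1 FPKM in AGS. All 3 genes were called higher in MKN1.

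COL1A1, the main chain of type I collagen (chr17:50183289-50201632, minus strand, GRCh38), was measured in both lines, as was COL27A1. It was at 43.8 FPKM in MKN1 siHOXB9 and 35.0 FPKM in MKN1 siScramble, and at 29.3 FPKM in AGS siHOXB9 and 15.8 FPKM in AGS siScramble, so it was higher with siHOXB9 in each line, by 0.32 in MKN1 and 0.85 in AGS on the log2 scale. COL1A2, which normally joins COL1A1 in the trimer, was listed at 0 in all 4 libraries. COL27A1, a fibrillar collagen of cartilage, went the other way between lines, with 3.13 and 2.31 FPKM in MKN1 siHOXB9 and siScramble and 7.72 and 6.22 FPKM in AGS siHOXB9 and siScramble. The median change with siHOXB9 of the measured fibrillar chains was 0.32 in MKN1, with 5 of 5 above 0, and 0.56 in AGS, with 2 of 2 above 0.

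The type IV collagen chains of basement membranes were mostly genes of MKN1, and their proportions differed between the lines. COL4A2 was at 120.4 FPKM in MKN1 siHOXB9 and 114 FPKM in MKN1 siScramble, and at 0.970 and 0.998 FPKM in AGS siHOXB9 and siScramble. COL4A1 was at 28.5 and 21.3 FPKM in MKN1 siHOXB9 and siScramble and at 1.40 and 1.63 FPKM in AGS siHOXB9 and siScramble. COL4A1 and COL4A2 form one heterotrimer and lie head to head on chromosome 13, so that in RefSeq (GRCh38.p14) their start sites are 127 bases apart on opposite strands and the promoter windows overlap by 226 bases. The window of COL4A2, 250 bases before to 50 bases after its start site, is shown because it serves both genes (chr13:110307034-110307333, plus strand), with the shared bases in capitals.
COL4A2: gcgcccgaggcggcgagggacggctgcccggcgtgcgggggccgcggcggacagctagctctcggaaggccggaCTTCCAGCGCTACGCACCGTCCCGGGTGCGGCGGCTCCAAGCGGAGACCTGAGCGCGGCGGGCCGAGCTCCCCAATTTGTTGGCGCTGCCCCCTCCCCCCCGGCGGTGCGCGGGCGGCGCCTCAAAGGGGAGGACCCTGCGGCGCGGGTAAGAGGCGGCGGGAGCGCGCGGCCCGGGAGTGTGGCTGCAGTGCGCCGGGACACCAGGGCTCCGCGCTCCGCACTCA
Although the start sites share this stretch, the ratio of COL4A1 to COL4A2 in FPKM was 0.237 in MKN1 siHOXB9 and 0.187 in MKN1 siScramble, but 1.44 in AGS siHOXB9 and 1.64 in AGS siScramble. With siHOXB9, COL4A1 had a change of 0.40 in MKN1 and -0.14 in AGS, where its level is close to 1 FPKM.

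COL4A5, a chain of the alternative type IV networks encoded on chromosome X, was the exception among the basement membrane collagens. It was at 9.14 FPKM in MKN1 siHOXB9 and 5.33 FPKM in MKN1 siScramble, and at 14.8 FPKM in AGS siHOXB9 and 12.6 FPKM in AGS siScramble. Its line difference of -0.87 ± 0.218 had an adjusted p of 0.0113 in limma but missed the size threshold. In MKN1 its change with siHOXB9 was 0.68, the largest of the 4 basement membrane collagens, and in AGS it was 0.22. COL18A1, which carries heparan sulphate chains and from which endostatin is cleaved, was at 77.4 and 66.0 FPKM in MKN1 siHOXB9 and siScramble and at 3.19 and 2.47 FPKM in AGS siHOXB9 and siScramble. Its line difference was 4.25 ± 0.19 (limma adjusted p = 3.51e-06), and it shares 1401 exon bases with SLC19A1, whose reads cannot be told apart from its own without strand.

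Type VI collagen, a beaded filament that normally needs a COL6A1, a COL6A2 and a further chain, was represented by COL6A1 almost alone. COL6A1 was at 21.9 FPKM in MKN1 siHOXB9 and 19.0 FPKM in MKN1 siScramble, and at 144 FPKM in AGS siHOXB9 and 149 FPKM in AGS siScramble, a line difference of -2.78 ± 0.174 (limma adjusted p = 1.5e-05). COL6A2 did not pass 1.14 FPKM in any library, so the COL6A2 level was 0.0511 and 0.0596 of COL6A1 in MKN1 siHOXB9 and siScramble, and 0.00113 in AGS siHOXB9, with COL6A2 listed at 0 in AGS siScramble. COL6A3 stayed under 1 FPKM in all libraries.

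COL7A1, the anchoring fibril collagen that ties an epithelium to its stroma, was at 125 and 104 FPKM in MKN1 siHOXB9 and siScramble and at 0.275 and 0.492 FPKM in AGS siHOXB9 and siScramble, a line difference of 6.38 ± 0.216 (limma adjusted p = 1.28e-06). COL12A1 and COL16A1 belong to the FACIT collagens, which sit on the surface of fibrils. COL12A1 was at 21.4 and 22.2 FPKM in MKN1 siHOXB9 and siScramble, and at 0.00918 FPKM in AGS siHOXB9 and listed at 0 in AGS siScramble. COL16A1 was at 39.1 and 36.3 FPKM in MKN1 siHOXB9 and siScramble, and at 7.22 and 4.35 FPKM in AGS siHOXB9 and siScramble. All 3 were called higher in MKN1, and the change of COL16A1 with siHOXB9 was 0.10 in MKN1 and 0.62 in AGS, a difference that was not tested.

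COL8A1, a short-chain collagen of vessel walls and of Descemet's membrane of the eye (chr3:99638475-99799226, plus strand), was at 2.81 FPKM in MKN1 siHOXB9 and 0.760 FPKM in MKN1 siScramble. The ratio was 3.70, with a 95% interval of 2.65 to 5.17 from counting error alone, and the log2 change with the pseudocount was 1.11. In AGS siHOXB9 it was listed at 0 and in AGS siScramble it was at 0.0329 FPKM, so the AGS libraries give no second measurement. COL17A1, the hemidesmosome collagen of basal epithelial cells, was at 0.0719 FPKM in MKN1 siHOXB9 and 0.532 FPKM in MKN1 siScramble, and at 4.17 FPKM in AGS siHOXB9 and 3.82 FPKM in AGS siScramble. It was lower in MKN1 by -1.96 ± 0.241 (log2, limma adjusted p = 0.000408). COL17A1 passed the filter through the AGS libraries alone, so the limit given above holds for this p-value. COL13A1, the other transmembrane collagen, did not reach 1 FPKM in any library, with 0.153 FPKM in AGS siHOXB9 and 0.859 FPKM in AGS siScramble.

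Both lines expressed laminins at high levels, with LAMA5 as the leading alpha chain in each and different minor alpha chains. The 8 laminin chains summed to 667 FPKM in MKN1 siHOXB9 and 547 FPKM in MKN1 siScramble, and to 773 FPKM in AGS siHOXB9 and 564 FPKM in AGS siScramble. In MKN1 7 of 8 were above 0 with siHOXB9, with a median change of 0.16, and in AGS 6 of 6 were, with a median of 0.41. LAMA5, the alpha chain of most adult epithelial basement membranes, was the highest chain in all 4 libraries, with 338 FPKM in MKN1 siHOXB9, 283 FPKM in MKN1 siScramble, 205 FPKM in AGS siHOXB9 and 168 FPKM in AGS siScramble. LAMA1, the alpha chain of early embryonic basement membranes, was at 17.1 and 15.9 FPKM in MKN1 siHOXB9 and siScramble and at 0.403 and 0.246 FPKM in AGS siHOXB9 and siScramble, and it shares 1754 exon bases with 2 genes on the opposite strand. LAMA4, of vessels and muscle, was also called higher in MKN1, at 4.14 and 3.57 FPKM in MKN1 siHOXB9 and siScramble and under 0.2 FPKM in AGS.

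LAMA3, which pairs with LAMB3 in the laminin under hemidesmosomes, had the largest difference in favour of AGS of the 40 tested matrix genes. It was at 2.62 and 2.34 FPKM in MKN1 siHOXB9 and siScramble, and at 34.8 FPKM in AGS siHOXB9 and 23.7 FPKM in AGS siScramble, a line difference of -3.10 ± 0.216 (limma adjusted p = 2.53e-05). LAMB3, its partner, had overlapping levels in the lines: it was at 92.1 FPKM in MKN1 siHOXB9 and 66.4 FPKM in MKN1 siScramble, and at 75.5 FPKM in AGS siHOXB9 and 70.3 FPKM in AGS siScramble. LAMB3 was the 1 tested matrix gene whose line difference had an adjusted p over 0.05 in limma (0.10 ± 0.179, adjusted p = 0.65). The level of LAMA3 was 0.0284 and 0.0352 of LAMB3 in MKN1 siHOXB9 and siScramble, against 0.461 and 0.338 in AGS siHOXB9 and siScramble.

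**Figure D5:**
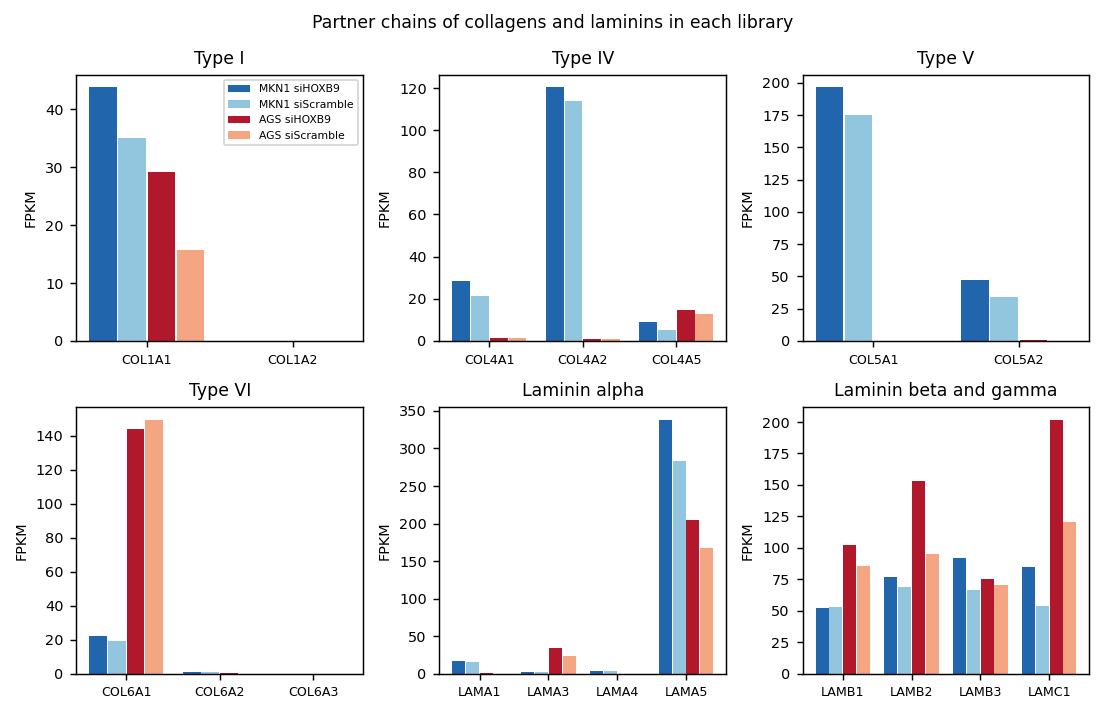
FPKM of partner chains of type I, IV, V and VI collagen and of laminins in each library, on linear axes from 0; bars run MKN1 siHOXB9, MKN1 siScramble, AGS siHOXB9, AGS siScramble. COL1A1 and COL6A1 stand without their partners, COL4A2 exceeds COL4A1 in MKN1, LAMA3 is an AGS chain, and LAMC1 is higher with siHOXB9 in both lines.

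LAMC1 (chr1:183023460-183145592, plus strand) was at 84.5 FPKM in MKN1 siHOXB9 and 53.8 FPKM in MKN1 siScramble, and at 202 FPKM in AGS siHOXB9 and 121 FPKM in AGS siScramble. The ratio was 1.57 in MKN1 (95% counting interval 1.51 to 1.63) and 1.67 in AGS (1.63 to 1.71). The siHOXB9 library was the higher one in each line, and AGS was above MKN1 with either siRNA, a line difference of -1.20 ± 0.165 (limma adjusted p = 0.000703). The RefSeq window around its start site is shown because LAMC1 was the 1 matrix gene at least 1.5-fold higher in both lines (chr1:183023170-183023469, plus strand, GRCh38.p14), with matches to the GC box GGGCGG on either strand in capitals.
LAMC1: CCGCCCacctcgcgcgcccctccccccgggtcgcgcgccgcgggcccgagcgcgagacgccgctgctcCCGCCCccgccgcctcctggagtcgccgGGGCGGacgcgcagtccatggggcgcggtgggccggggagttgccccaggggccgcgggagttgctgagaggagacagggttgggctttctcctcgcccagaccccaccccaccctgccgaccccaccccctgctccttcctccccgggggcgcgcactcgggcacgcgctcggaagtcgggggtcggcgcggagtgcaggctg
It holds 3 such matches, and the words for the TATA box (TATAAA), the CCAAT box (CCAAT), AP-1 (TGANTCA) and the homeodomain core (TAAT) were searched on both strands and not found in it. The beta chains that pair with LAMC1 had smaller log2 differences between siRNAs in both lines. LAMB1 was at 52.0 and 52.7 FPKM in MKN1 siHOXB9 and siScramble and at 102 and 85.9 FPKM in AGS siHOXB9 and siScramble, and LAMB2 at 76.9 and 69.3 FPKM in MKN1 siHOXB9 and siScramble and at 153 and 95.3 FPKM in AGS siHOXB9 and siScramble. LAMB1 per LAMC1 was therefore 0.615 in MKN1 siHOXB9 and 0.979 in MKN1 siScramble, and 0.508 in AGS siHOXB9 and 0.710 in AGS siScramble, lower with siHOXB9 in both lines.

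The linkers that join the laminin and collagen IV networks were present in both lines, with NID2 as an exception. AGRN, the heparan sulphate proteoglycan agrin, was at 226 and 186 FPKM in MKN1 siHOXB9 and siScramble and at 347 and 284 FPKM in AGS siHOXB9 and siScramble, which gives nearly the same change with siHOXB9 in each line, 0.28 in MKN1 and 0.29 in AGS. HSPG2, which encodes perlecan, was at 24.6 and 23.9 FPKM in MKN1 siHOXB9 and siScramble and at 78.6 and 81.0 FPKM in AGS siHOXB9 and siScramble, and was called lower in MKN1 (-1.68 ± 0.172, limma adjusted p = 0.000169). HSPG2 shares 2121 exon bases with LDLRAD2. NID1 was at 11.0 and 9.10 FPKM in MKN1 siHOXB9 and siScramble and at 4.50 and 3.23 FPKM in AGS siHOXB9 and siScramble. NID2 was at 53.3 FPKM in MKN1 siHOXB9 and 41.5 FPKM in MKN1 siScramble, but at 0.00500 FPKM in AGS siHOXB9 and 0.234 FPKM in AGS siScramble, and it shares 1915 exon bases with RTRAF. Both nidogens were called higher in MKN1, by 1.19 ± 0.210 for NID1 (adjusted p = 0.00227) and 5.43 ± 0.241 for NID2 (adjusted p = 3.45e-06), and the nidogen of AGS was almost wholly NID1.

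Fibronectin, the fibrillins, the fibulins and MFAP2 were at 1 FPKM or more in MKN1 alone: 6 of 6 reached it there, and 0 of 6 did in AGS, where their levels summed to 0.70 FPKM with siHOXB9 and 0.61 FPKM with siScramble. FN1, the fibronectin that integrins assemble into fibrils, was at 30.4 and 32.8 FPKM in MKN1 siHOXB9 and siScramble and at 0.0149 and 0.0576 FPKM in AGS siHOXB9 and siScramble. FBLN1, a fibulin that binds fibronectin and basement membrane, was at 234 and 228 FPKM in MKN1 siHOXB9 and siScramble and at 0.368 and 0.251 FPKM in AGS siHOXB9 and siScramble, a line difference of 7.47 ± 0.189 (limma adjusted p = 6.59e-07). EFEMP1, a further fibulin, was at 145 FPKM in MKN1 siHOXB9 and 173 FPKM in MKN1 siScramble and under 0.2 FPKM in AGS.

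The microfibril genes followed the same order. FBN1 was at 16.5 and 14.6 FPKM and FBN2 at 9.73 and 11.3 FPKM in MKN1 siHOXB9 and siScramble, and both were under 0.25 FPKM in AGS. MFAP2, a small protein of microfibrils, was at 65.2 and 54.3 FPKM in MKN1 siHOXB9 and siScramble and listed at 0 in both AGS libraries. With siHOXB9 in MKN1 this group was split, 3 above 0 and 3 below, with a median of -0.03, and FN1 (-0.11), FBN2 (-0.20) and EFEMP1 (-0.25) were the members below 0.

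Of the 7 matricellular genes 4 reached 1 FPKM in MKN1, and in AGS SPARC and THBS1 had the largest ratios between siRNAs among the 21 matrix genes measured there. SPARC, which binds collagen, was at 329 FPKM in MKN1 siHOXB9 and 309 FPKM in MKN1 siScramble, and at 1.44 FPKM in AGS siHOXB9 and 0.417 FPKM in AGS siScramble, a line difference of 7.43 ± 0.222 (limma adjusted p = 8.49e-07). In AGS the SPARC ratio was 3.44 with a 95% counting interval of 2.0 to 6.01, on about 62.0 and 18.7 estimated fragments in siHOXB9 and siScramble. TGFBI, a secreted protein named for its induction by TGF-beta, was at 256 FPKM in MKN1 siHOXB9 and 176 FPKM in MKN1 siScramble, and at 0.873 and 1.04 FPKM in AGS siHOXB9 and siScramble. TNC, tenascin C, was at 7.12 and 6.77 FPKM in MKN1 siHOXB9 and siScramble, and at 0.0504 FPKM in AGS siHOXB9 and listed at 0 in AGS siScramble. THBS2 and POSTN were listed at 0 in all libraries and SRPX2 stayed under 1 FPKM.

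THBS1, a trimeric glycoprotein that can activate latent TGF-beta (chr15:39581079-39599466, plus strand), was at 111 FPKM in MKN1 siHOXB9 and 87.1 FPKM in MKN1 siScramble, and at 4.67 FPKM in AGS siHOXB9 and 1.60 FPKM in AGS siScramble. Its ratio was 1.27 in MKN1 and 2.92 in AGS, where the 95% counting interval of 2.42 to 3.52 rests on about 440 and 157 estimated fragments. The difference between the lines in this change was not tested. The RefSeq window around its start site is shown because THBS1 was the 1 matrix gene 2-fold higher in AGS with the pseudocount (chr15:39580829-39581128, plus strand, GRCh38.p14), with GC boxes (GGGCGG) and the CCAAT box, on either strand, in capitals.
THBS1: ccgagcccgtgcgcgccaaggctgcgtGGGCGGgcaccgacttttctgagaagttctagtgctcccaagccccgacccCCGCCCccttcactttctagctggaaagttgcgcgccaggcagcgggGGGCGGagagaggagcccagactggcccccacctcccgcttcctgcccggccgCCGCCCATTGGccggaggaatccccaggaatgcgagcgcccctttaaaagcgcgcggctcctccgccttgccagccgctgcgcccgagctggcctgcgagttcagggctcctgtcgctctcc
It holds 4 GC boxes and 1 CCAAT box, the last GC box abutting the CCAAT box, and none of the words for the TATA box, AP-1 and the homeodomain core. Among the 38 matrix genes with a window, 28 had a GC box in at least 1 window, 10 a CCAAT box, 7 a TATA box, 5 the AP-1 word and 15 the homeodomain core. Of all 35116 windows of that length, 45.0% had a GC box, 34.6% a CCAAT box, 11.5% a TATA box, 7.7% the AP-1 word and 50.2% the homeodomain core. These are matches of letters on either strand, which may overlap, and not sites. The matrix counts are per gene, over any of its windows, while the shares are per window. A gene with more windows has more chances of a match, so the counts and shares cannot be compared directly.

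Of the small leucine-rich proteoglycans, which coat collagen fibrils, LUM was at 6.90 FPKM in MKN1 siHOXB9 and 3.93 FPKM in MKN1 siScramble, a ratio of 1.76 (95% counting interval 1.40 to 2.21), and at 0.109 FPKM in AGS siHOXB9 and listed at 0 in AGS siScramble. DCN, decorin, lay in the opposite direction in MKN1, with 0.839 FPKM in MKN1 siHOXB9 and 1.52 FPKM in MKN1 siScramble, and was listed at 0 in both AGS libraries. BGN and the large proteoglycan VCAN stayed under 1 FPKM in all libraries. The matrix-bound insulin-like growth factor binding proteins gave the highest level and the largest lower value. IGFBP7 was at 937 FPKM in MKN1 siHOXB9 and 819 FPKM in MKN1 siScramble, and at 0.959 and 1.18 FPKM in AGS siHOXB9 and siScramble, the largest line difference of the 40 tested matrix genes (8.73 ± 0.184, limma adjusted p = 5.07e-07). IGFBP3, which carries IGFs in plasma, was at 35.5 FPKM in MKN1 siHOXB9 and 55.6 FPKM in MKN1 siScramble, a ratio of 0.639 (95% counting interval 0.585 to 0.697), and at 0.257 and 0.0393 FPKM in AGS siHOXB9 and siScramble. It was the measured matrix gene with the most negative change in MKN1, -0.63, and in AGS it was not measured.

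All 50 genes are thereby accounted for: 42 reached 1 FPKM in a library, 5 stayed under 1 FPKM in every library without being at 0 throughout (COL6A3, COL13A1, SRPX2, BGN and VCAN), and 3 were listed at 0 in all (COL1A2, THBS2 and POSTN). Exon bases were shared with another gene by 21 of them, 300 or more by 11. Where levels are set beside each other between genes they are per length, as FPKM.

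Genes that make, process and bind matrix proteins were described by the same measures. The counts of these lists, here and in the next paragraph, stand beside the shares of all measured rows. Those were 63.1% above 0 in MKN1 (median 0.09) and 43% in AGS (median -0.06). In the list of collagen folding and secretion, 12 of 17 measured genes were above 0 with siHOXB9 in MKN1 and 6 of 15 in AGS, with medians of 0.17 in MKN1 and -0.10 in AGS. P4HA1, a subunit of prolyl 4-hydroxylase, was below 0 in both lines (-0.38 in MKN1 and -0.37 in AGS), and SEC23A, of the coat that exports procollagen, above 0 in both (0.36 in MKN1 and 0.34 in AGS). MIA3, a receptor that loads procollagen into carriers, was at 16.8 FPKM in MKN1 siHOXB9 and 9.97 FPKM in MKN1 siScramble, and at 29.3 and 29.7 FPKM in AGS siHOXB9 and siScramble. In the list of procollagen processing and cross-linking, 6 of 10 were above 0 in MKN1 and 2 of 4 in AGS. LOXL2, a lysyl oxidase that cross-links collagen, was at 41.5 FPKM in MKN1 siHOXB9 and 133 FPKM in MKN1 siScramble, the 1 gene of this list past 2-fold, and it was under 0.5 FPKM in AGS.

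Among matrix receptors, 13 of 15 measured genes were above 0 with siHOXB9 in MKN1 and 5 of 14 in AGS, with medians of 0.14 in MKN1 and -0.16 in AGS. ITGA5, the fibronectin receptor chain, was at 150.5 FPKM in MKN1 siHOXB9 and 72.5 FPKM in MKN1 siScramble, and at 28.0 and 31.5 FPKM in AGS siHOXB9 and siScramble. ITGB4, the laminin receptor chain of hemidesmosomes, was at 29.6 and 24.1 FPKM in MKN1 siHOXB9 and siScramble and at 116 and 133 FPKM in AGS siHOXB9 and siScramble. In the list of matrix proteases and inhibitors, 9 of 13 were above 0 in MKN1 and 6 of 10 in AGS. MMP1, interstitial collagenase, was the 1 gene of this list past 2-fold, with 0.0549 and 0.0508 FPKM in MKN1 siHOXB9 and siScramble, and 49.2 FPKM in AGS siHOXB9 and 185 FPKM in AGS siScramble (log2 change -1.89). ADAMTS1, a secreted metalloprotease, was at 16.1 FPKM in MKN1 siHOXB9 and 28.4 FPKM in MKN1 siScramble and listed at 0 in AGS. MMP2, a gelatinase, was at 31.6 FPKM in MKN1 siHOXB9 and 20.7 FPKM in MKN1 siScramble and under 0.2 FPKM in AGS. Among other collagen chains, 6 of 8 were above 0 in MKN1 and 1 of 2 in AGS, among other laminin and netrin chains 3 of 4 in MKN1 and 2 of 3 in AGS, and among other matrix glycoproteins and proteoglycans 13 of 23 in MKN1 and 13 of 19 in AGS. NTN4, a netrin that binds laminin gamma chains, was at 12.3 and 13.4 FPKM in MKN1 siHOXB9 and siScramble, and at 10.6 FPKM in AGS siHOXB9 and 5.32 FPKM in AGS siScramble.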

How the data were processed

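RNA of 4 cultures was purified with poly-T beads, fragmented and made into libraries with random primers, per the labels' protocols, which describe no step that keeps strand. The deposited table holds 1 row per gene symbol entry and 1 column of FPKM per library, computed by the authors. Per the submitters' processing notes the builds were GRCh38 and hg38. The aligner and counting tool are not named in the sources used here. One of the titles spells MKN1 as MNK1, while the other labels of that sample give MKN1. The matrix genes and all gene lists were chosen with earlier results of these data known.

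Symbols were matched to GENCODE release 29 for positions, transcripts and shared exon bases, and promoter windows came from RefSeq (GRCh38.p14). Depth was recovered from low values of genes with a single transcript, of which 56.3% to 58.7% were less than 0.05 from a whole fragment number after shortening transcripts by 260 bases. Fragments per gene, estimated from the longest protein-coding transcript, gave exact binomial 95% intervals of ratios, which cover counting error only.

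Within a line the change was log2((siHOXB9 FPKM + 1)/(siScramble FPKM + 1)), with no test and a size rule of 2-fold. Across lines limma 3.58.1 in R 4.3.3 was fitted to log2(FPKM + 1) with line and siRNA as terms and an intensity trend, two-sided, with Benjamini-Hochberg adjustment at 0.05 over 13758 rows. A fold on this scale understates the change of low genes. Matrix genes that reached 5 FPKM in any library were named with values, and the others where a partner chain or a count called for them, chosen after their values were seen. Of each other list, up to 4 genes with the largest change in a line could be named. The lists beside the matrix genes held 187 names with a row, and 7 names were not analysed here. Alternatives were another pseudocount, other filters, rescaling, centring, quantile normalization, another size rule, other variance options, a fit with siRNA as its only term and the genes that share no exon bases. The code was tested on simulated data. A result on 1 further gene is not reported here.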

Additional observations from a re-analysis of the deposited data

Results flagged for a closer look

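The 6 matrix genes measured in both lines whose change with siHOXB9 had opposite signs are listed here, and in none was the difference between the lines tested. COL4A1 had a log2 change of 0.40 in MKN1 and -0.14 in AGS. COL6A1 was at 0.19 in MKN1 and -0.053 in AGS, and HSPG2 at 0.044 in MKN1 and -0.043 in AGS. TGFBI was at 0.54 in MKN1 and -0.12 in AGS, and IGFBP7 at 0.20 in MKN1 and -0.16 in AGS. LAMB1 was the gene with the reverse order, at -0.019 in MKN1 and 0.25 in AGS. COL4A1, TGFBI and IGFBP7 were between 0.873 and 1.63 FPKM in the AGS libraries.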

How the results depend on the processing

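The fit has 1 library per line and siRNA, so nothing here measures the spread between cultures, and leaving out a library would leave no residual degree of freedom, so that was not run. Genes of AGS near 1 FPKM rest on few fragments. The number of matrix genes called for siHOXB9 over both lines was 0 under every alternative run, with a smallest adjusted p between 0.351 and 1. Without the line as a replicate block limma called 0 of all genes, as it did with a pseudocount of 0.1 FPKM, no filter, rescaling, quantile normalization and centring, while a filter of 5 FPKM gave 8 and the robust option 7, against 1 as reported. No paired analysis beyond the line was possible because each line had 1 library per siRNA. Matrix genes 2-fold higher in MKN1 numbered 0 with a filter of 5 FPKM and 4 at 1.5-fold, with 1 lower at 1.5-fold; in AGS they numbered 2 with a pseudocount of 0.1 FPKM, 0 with a filter of 5 FPKM, 6 at 1.5-fold and 0 without shared exons. Of all measured rows 7.96% were 1.5-fold higher and 5.39% lower in MKN1, and 5.64% higher and 8.37% lower in AGS. The MKN1 median was 0.10 (0.0955) after quantile normalization. Matrix genes above 0 numbered 30 of 41 in MKN1 and 19 of 22 in AGS after rescaling, and 29 of 41 in MKN1 and 18 of 20 in AGS after quantile normalization. Of 295 line differences of named genes under the alternatives, 290 kept direction and side of the threshold, 4 lost the call (COL27A1 and NID1) and COL1A1 gained it. COL17A1, which did not reach 5 FPKM, was not among these named genes. Over all matrix genes, 25 were called higher and 4 lower in MKN1 without a filter, against 26 and 6 as reported. Without the size rule 10 matrix genes were lower in MKN1. All genes higher and lower in MKN1 numbered 1271 and 1479 without a filter and 3596 and 4533 without the size rule. LAMB3 in the siScramble libraries alone had a line difference of -0.081. Estimates over both lines that changed sign, all without a call, were COL3A1 (-0.0051), COL5A1 (-0.20), COL7A1 (-0.20), COL12A1 (0.036), NID2 (-0.65), FBN2 (0.17), IGFBP3 (0.36) and IGFBP7 (-0.042) with a pseudocount of 0.1 FPKM. With quantile normalization they were COL5A1 (-0.028), COL4A2 (-0.016), COL7A1 (-0.038), NID2 (-0.032), HSPG2 (-0.0047) and IGFBP7 (-0.024), with rescaling COL5A1 (-0.01), COL7A1 (-0.0103) and NID2 (-0.0026), and with centring HSPG2 (-0.012). The cause of these shifts was not tested.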

Other observations

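The list of TGF-beta ligands, receptors and targets, a pathway that drives matrix genes in many cells, was described by the same measures. With siHOXB9, 9 of 14 measured genes were above 0 in MKN1, with a median change of 0.13, and 3 of 12 in AGS, with a median of -0.14. Of all measured rows, 63.1% were above 0 in MKN1 (median 0.09) and 43% in AGS (median -0.06). TGFBR2, the type II receptor, was at 27.2 FPKM in MKN1 siHOXB9 and 12.9 FPKM in MKN1 siScramble, a log2 change of 1.03, and had a change of -0.53 in AGS. PMEPA1, a target gene and feedback inhibitor, had a change of 0.84 in MKN1 and was under 0.5 FPKM in AGS. SMAD7, an inhibitor of the pathway, had a change of 0.67 in MKN1 and 0.08 in AGS. SMAD4, the common mediator, was below 0 in both lines (-0.32 in MKN1 and -0.66 in AGS), as was the co-receptor TGFBR3 (-0.42 in MKN1 and -0.54 in AGS). The difference between the lines in these changes was not tested.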
